A study of Homo sapiens with 8 samples.

Results

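The genes described here are the AP-1 subunits FOS, FOSB, FOSL1, FOSL2, JUN, JUNB and JUND, and the immediate early genes EGR1, IER2 and IER3. They were chosen by symbol and make up 10 of 42125 genes in the count table of the TFAP2C knockdown (KD) experiment and 10 of 23393 in that of the UBA2 KD experiment. All 10 passed the filter on low counts in both tables. mRNA was sequenced from HCT116, a human colorectal cancer cell line, here stably carrying a doxycycline (Dox) inducible shRNA against UBA2, the catalytic subunit of the enzyme that activates SUMO. All 8 libraries carry this shRNA. The first experiment compared control siRNA with TFAP2C siRNA after 48 hours, where TFAP2C is a transcription factor of the AP-2 family. The second compared control cells with cells given Dox at 1 µg/mL for 5 days, the libraries labelled UBA2 KD. The labels describe the second control as DMSO, and the column names as minus Dox. Each of the 4 groups had 2 libraries. All came from a single line, and nothing in the labels says that replicates were separate cultures, so p-values measure only the spread between these libraries.

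AP-1 is a dimer of basic leucine zipper (bZIP) proteins. JUN proteins pair with each other or with FOS proteins, whereas FOS proteins need a JUN partner, and the dimers bind the sequence TGANTCA in promoters and enhancers. Growth factors and stress switch on several of these genes within minutes through ERK and other MAP kinases, without new protein synthesis, which is what immediate early means. FOSL1 follows more slowly and stays high while ERK signalling persists.

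The sequence just upstream of the transcription start is shown for 4 of the genes because it can hold some of the elements through which immediate early genes are induced. RefSeq promoters were matched for 8 of the 10 genes, all but FOSL1 and IER3, on GRCh38.p14. The stretch covers 250 bases up to the base before the start. It lies at chr14:75278578-75278827 on the plus strand for FOS, at chr19:45467746-45467995 on the plus strand for FOSB, at chr1:58784048-58784297 on the minus strand for JUN and at chr5:138465229-138465478 on the plus strand for EGR1. Each is printed 5′ to 3′ along the gene. Capitals mark matches, on either strand, to TGACG, the core of the cAMP response element bound by CREB and ATF proteins, and in EGR1 also to the CArG box bound by serum response factor.
FOS: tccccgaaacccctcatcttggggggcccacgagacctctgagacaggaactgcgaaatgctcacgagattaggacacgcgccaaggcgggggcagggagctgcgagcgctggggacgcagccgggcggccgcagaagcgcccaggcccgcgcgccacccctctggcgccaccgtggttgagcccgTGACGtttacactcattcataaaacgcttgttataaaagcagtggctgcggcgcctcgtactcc
FOSB: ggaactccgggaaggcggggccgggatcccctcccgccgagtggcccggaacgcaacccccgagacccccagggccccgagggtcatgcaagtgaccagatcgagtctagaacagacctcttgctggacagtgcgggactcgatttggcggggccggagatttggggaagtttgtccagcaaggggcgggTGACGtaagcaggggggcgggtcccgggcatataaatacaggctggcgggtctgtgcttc
JUN: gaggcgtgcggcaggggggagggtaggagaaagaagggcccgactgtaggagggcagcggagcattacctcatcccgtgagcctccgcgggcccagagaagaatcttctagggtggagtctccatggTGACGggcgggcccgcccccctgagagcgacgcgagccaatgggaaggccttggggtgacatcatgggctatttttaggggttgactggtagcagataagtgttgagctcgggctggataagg
EGR1: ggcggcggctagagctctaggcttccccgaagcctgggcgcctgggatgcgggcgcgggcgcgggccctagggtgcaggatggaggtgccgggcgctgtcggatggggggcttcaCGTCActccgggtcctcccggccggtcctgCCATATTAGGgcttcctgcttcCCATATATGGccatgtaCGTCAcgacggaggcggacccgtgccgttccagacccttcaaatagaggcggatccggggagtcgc

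TGACG was present in 8 of 8 of these promoters, against 21.2% of all 35116 RefSeq promoters of the same length. The 8 windows had a GC content from 62.0% in JUN to 74.8% in JUND. The shares over all promoters were not matched for GC content, and some genes have several promoters among them (27305 symbols). The TGACG match lay 64 to 60 bases before the start in FOS, 60 to 56 in FOSB and 123 to 119 in JUN. EGR1 held it at 135 to 131 and at 66 to 62 bases, and the CArG box at 105 to 96 and at 83 to 74 bases. The CArG box was found in 1 of 8, against 1.16% of all promoters. The AP-1 sequence TGANTCA was found in 0 of 8, against 6.57%. The AP-2 sequence GCCNNNGGC was found in 1 of 8, in JUNB at 178 to 170 bases, against 19.8%. Matches of different motifs did not overlap each other, although JUND held TGACG on both strands in overlapping positions. These matches describe the letters of the window and say nothing of binding. Elements further upstream, and variants that differ from the motifs by a letter, were not searched.

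Library totals ran from 20785035 to 24465109 counts in the TFAP2C experiment and from 18213739 to 20607813 in the UBA2 experiment. TFAP2C mRNA, in counts scaled to library size with TMM factors (CPM), was 18.9 and 20.5 with control siRNA and 3.46 and 4.30 with TFAP2C siRNA, a log2 fold change of −2.34 (SE 0.13). UBA2 mRNA was 162 and 146 CPM in the control and 147 and 153 CPM in the libraries labelled UBA2 KD, a log2 fold change of −0.036 (95% interval −0.15 to 0.078, adjusted p = 0.766). The authors reported lower UBA2 protein after Dox by western blot, which these libraries do not measure. These libraries are therefore named by their label throughout, and directions drawn from them rest on that label. No library came from Dox-treated cells without the shRNA, so effects of Dox itself and of the shRNA cannot be told apart. Of 9 epithelial markers, 8 were above 10 CPM in every library of the first experiment and 7 in every library of the second, and VIL1 was near 0 in both. The 7 markers of other cell types summed to 53.7 to 60.2 CPM and to 16.7 to 24.7 CPM. Of these 7, COL1A1 and DES were above 10 CPM in every library of the first experiment, and COL1A1 alone in the second. COL1A1 ran from 42.3 to 48.2 CPM in the first and from 14.8 to 22.03 CPM in the second, and made up most of each sum. Within a bulk sample, a change in the number of cells that express a gene and a change in RNA per cell cannot be told apart.

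FOSL1 was the gene that rose in both experiments. In the TFAP2C KD, 1 of the 10 genes was higher at an adjusted p under 0.05, against 0.26% of all genes tested, and 0 were lower, against 0.48%. In the libraries labelled UBA2 KD, FOSL1, JUN and IER3 were higher, 3 of 10 against 5.52% of all genes, and 0 were lower, against 4.47%. The groups did not overlap for 3 of the 10 genes in the TFAP2C experiment, against 44.7% of all genes, and for 5 of the 10 in the UBA2 experiment, against 51.3%. The median log2 fold change of the 10 was 0.058 in the first, beside −0.0038 over all genes, and −0.045 in the second, beside −0.00042. In the first 8 of the 10 lay above 0, beside 49.1% of all genes, and in the second 4 did, beside 49.9%.

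**Figure D1:**
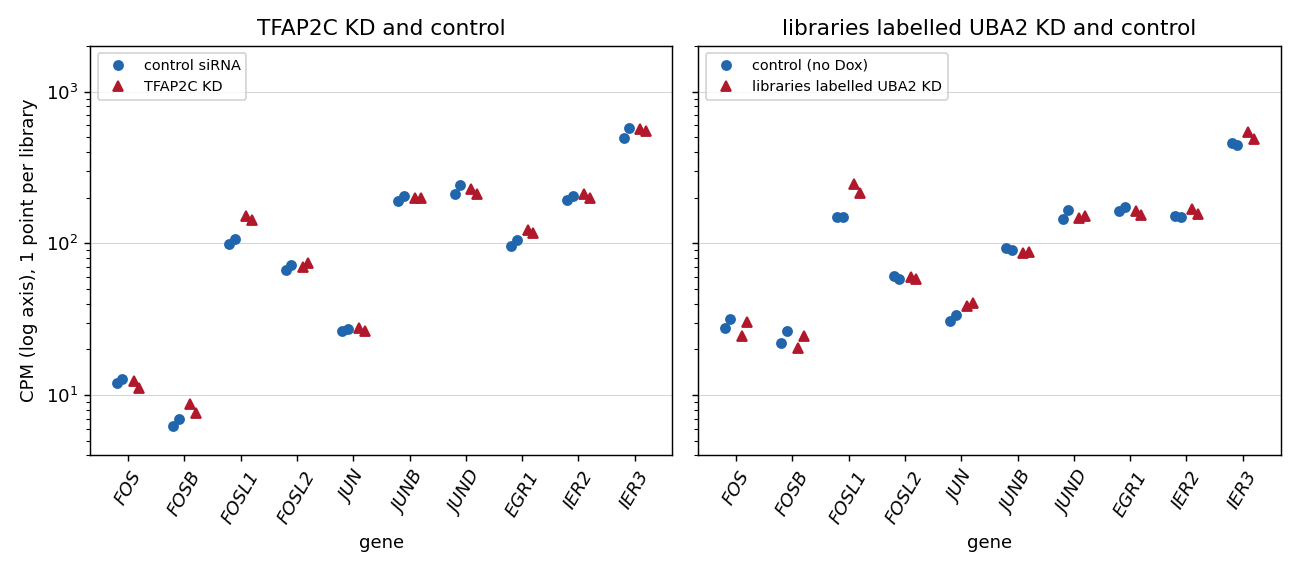
Level of each of the 10 genes in every library (CPM after TMM scaling, log axis), with the TFAP2C experiment and the UBA2 experiment in separate panels and 1 point per library. FOSL1 is the gene whose TFAP2C siRNA points and whose points labelled UBA2 KD both lie above their controls at an adjusted p under 0.05, and FOS and FOSB, at 11.9 and 12.8 and at 6.28 and 6.95 CPM with control siRNA, are the lowest there.

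Among the FOS proteins, FOSL1 encodes FRA-1, which lacks the transactivation domain of FOS. Its gene lies on chromosome 11 at 65892049 to 65900573 on the minus strand (GRCh38, as the first table gives it, like all gene positions below). FOSL1 was at 98.4 and 107 CPM with control siRNA and at 151 and 143 CPM with TFAP2C siRNA. Both knockdown libraries lay above both controls. The mean went from 103 ± 6.33 to 147 ± 5.88 CPM (SD, n = 2), a rise of 42.6% or a log2 fold change of 0.51 (SE 0.074, 95% interval 0.35 to 0.67, adjusted p = 0.00793). By p-value it stood at rank 28 of 14991 genes. Without control siRNA replicate 1 the log2 fold change was 0.45 and the call was lost (adjusted p = 0.151).

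FOSL1 in the UBA2 experiment was at 148 and 150.2 CPM in the control and at 246 and 215 CPM in the libraries labelled UBA2 KD. The groups were well separated, although the libraries labelled UBA2 KD were further apart than the controls. The mean went from 149 ± 1.34 to 230.3 ± 21.6 CPM (SD, n = 2), a rise of 54.3% or a log2 fold change of 0.63 (SE 0.056, 95% interval 0.51 to 0.74, adjusted p = 4.55e-10). It stood at rank 52 of 13381 genes by p-value. The call held in every alternative tried, with log2 fold changes between 0.53 and 0.72.

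FOS and FOSB, the classical members that are transient and carry full transactivation domains, had no called change. FOS (chromosome 14, 75278826 to 75282230, plus strand) was at 11.9 and 12.8 CPM with control siRNA and at 12.3 and 11.2 CPM with TFAP2C siRNA (log2 fold change −0.073, 95% interval −0.32 to 0.17). In the control of the second experiment it was at 27.7 and 31.8 CPM, and in the libraries labelled UBA2 KD at 24.5 and 30.5 CPM (log2 fold change −0.11, SE 0.092). The groups overlapped in both experiments. FOSB (chromosome 19, 45467995 to 45475179, plus strand) was at 6.28 and 6.95 CPM with control siRNA and at 8.71 and 7.61 CPM with TFAP2C siRNA. The groups did not overlap, but the log2 fold change of 0.31 (95% interval 0.019 to 0.60) had an adjusted p of 0.367. FOSB was at 22.0 and 26.6 CPM in the control of the second experiment, and in the libraries labelled UBA2 KD at 20.5 and 24.7 CPM (log2 fold change −0.11, SE 0.098). FOSB overlaps ERCC1, a DNA repair gene on the opposite strand that had up to 3490 counts where FOSB had as few as 145. The strand setting of the counting is not given in the sources used here, so reads from the pair cannot be told apart. ERCC1 itself had a log2 fold change of 0.037 in the TFAP2C KD and of 0.19 (adjusted p = 0.0364) in the libraries labelled UBA2 KD.

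FOSL2, which encodes FRA-2, lies on chromosome 2 at 28392448 to 28417317 on the plus strand and was not called in either experiment. Its libraries ran from 66.6 to 74.2 CPM in the first, with a log2 fold change of 0.059 (SE 0.077). They ran from 58.4 to 61.3 CPM in the second, with a log2 fold change of −0.017 (SE 0.065).

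Among the JUN proteins, JUN is a strong activator and its protein is phosphorylated by JNK. Its gene, on chromosome 1 at 58780788 to 58784327 of the minus strand, was called in the UBA2 experiment. JUN was at 26.3 and 27.1 CPM with control siRNA and at 27.8 and 26.3 CPM with TFAP2C siRNA, with overlapping groups and a log2 fold change of 0.018 (SE 0.088). The control of the second experiment was at 30.8 and 33.6 CPM, and the libraries labelled UBA2 KD at 38.4 and 40.2 CPM, and the groups were separate. The mean went from 32.2 ± 2.03 to 39.3 ± 1.24 CPM (SD, n = 2), a rise of 21.9% or a log2 fold change of 0.29 (SE 0.076, adjusted p = 0.0125). This call was lost with the Wald test of DESeq2 (adjusted p = 0.0967), without control replicate 1 (adjusted p = 0.160) and without UBA2 KD replicate 2 (adjusted p = 0.0592). The direction was the same in every alternative tried, with log2 fold changes between 0.23 and 0.35.

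JUNB and JUND, the JUN proteins with weaker activation and, for JUND, steady expression in resting cells, were not called in either experiment. Both lie on chromosome 19, JUNB at 12791486 to 12793315 on the plus strand and JUND at 18279760 to 18281622 on the minus strand. JUNB ran from 189 to 204 CPM in the TFAP2C experiment (log2 fold change 0.018, SE 0.069). It was at 93.3 and 90.8 CPM in the control of the second experiment, and in the libraries labelled UBA2 KD at 86.2 and 87.2 CPM. The groups did not overlap, but the log2 fold change was −0.086 (SE 0.058, adjusted p = 0.414). In the table of the TFAP2C experiment JUNB overlaps HOOK2 on the opposite strand, which had up to 2316 counts. JUND ran from 210.5 to 241 CPM in the first experiment and from 145 to 167 CPM in the second, with log2 fold changes of −0.047 (SE 0.078) and −0.074 (SE 0.058).

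EGR1 encodes a zinc finger factor that ERK induces through the CArG boxes marked above. It lies on chromosome 5 at 138465479 to 138469303 on the plus strand. It was at 96.2 and 106 CPM with control siRNA and at 123 and 118 CPM with TFAP2C siRNA. Both knockdown libraries lay above both controls, and the mean went from 101 ± 6.81 to 120.3 ± 3.69 CPM (SD, n = 2). The log2 fold change of 0.25 (95% interval 0.091 to 0.41) had an unadjusted p of 0.00528 and an adjusted p of 0.189, and so was not called. Without TFAP2C KD replicate 1 and replicate 2 the log2 fold change was 0.22 and 0.29. Without control siRNA replicate 1 and replicate 2 it was 0.19 and 0.31. With a block that joined replicate 1 of one group to replicate 2 of the other, chosen after seeing the data, EGR1 was called (edgeR, adjusted p = 0.0305). Whether EGR1 was called thus depended on the setting. EGR1 in the UBA2 experiment was at 163 and 175 CPM, then at 164 and 154 CPM, with overlapping groups and a log2 fold change of −0.088 (SE 0.054).

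IER3, a gene induced by stress and NF-κB that modulates ERK signalling and cell survival, was the most abundant of the 10. It lies on chromosome 6 at 30743199 to 30744548 on the minus strand. It was at 497 and 573 CPM with control siRNA and at 567 and 549 CPM with TFAP2C siRNA, with overlapping groups. The level in the control of the second experiment was 461 and 441 CPM, and in the libraries labelled UBA2 KD 538 and 489 CPM, with separate groups. The mean went from 451 ± 14.1 to 514 ± 34.4 CPM (SD, n = 2), a rise of 13.8% or a log2 fold change of 0.19 (SE 0.047, adjusted p = 0.00803). This call was lost with all 8 libraries in the fit (adjusted p = 0.138), without control replicate 2 (adjusted p = 0.0972) and without UBA2 KD replicate 1 (adjusted p = 0.166). The second table gives IER3 a start on an alternate chromosome 6 haplotype and a stop that lies elsewhere, so no position is quoted from it. IER2, a nuclear immediate early protein encoded on chromosome 19 at 13150411 to 13154911 on the plus strand, ran from 192 to 211 CPM in the first experiment (log2 fold change 0.058, SE 0.069). In the second it was at 151 and 148 CPM, then at 169 and 156 CPM, with separate groups but an adjusted p of 0.199 (log2 fold change 0.11, SE 0.054).

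**Figure D2:**
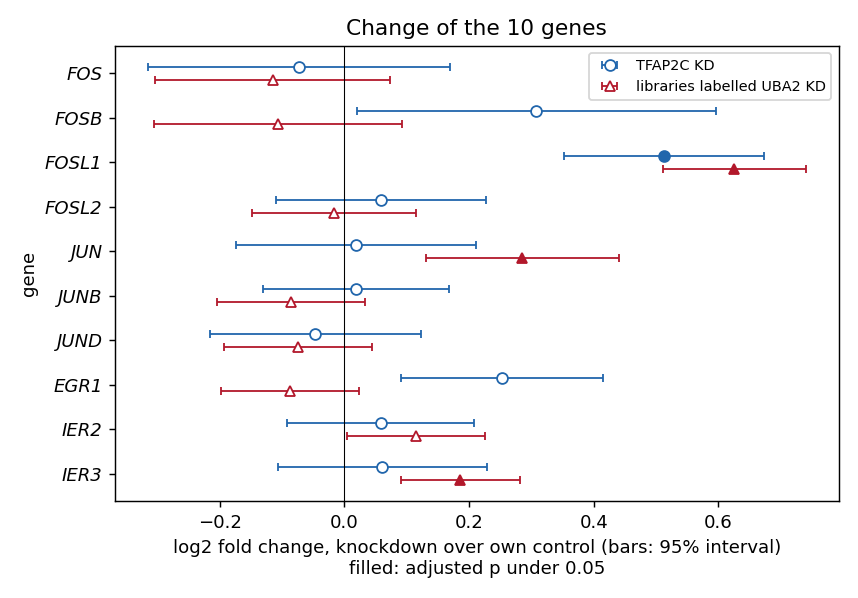
Log2 fold change of each of the 10 genes in the TFAP2C KD and the libraries labelled UBA2 KD, each over its own control, with 95% intervals from edgeR and filled points at an adjusted p under 0.05. FOSL1 is filled in both, at 0.51 and 0.63, and JUN and IER3 are filled in the libraries labelled UBA2 KD alone.

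Levels were compared between genes only after division by gene length (CPM per kilobase). With control siRNA the order was IER3 at 397, JUND at 121, JUNB at 107, IER2 at 64.2, FOSL1 at 54.7, EGR1 at 32.2, FOSL2 at 9.68, JUN at 7.55, FOS at 3.89 and FOSB at 1.19 CPM per kilobase, and neighbours did not overlap. With TFAP2C siRNA FOSL1, at 77.9, stood above IER2, at 66.9, and the other genes kept their order. In the control of the UBA2 experiment the order was IER3 at 365, FOSL1 at 89.7, JUND at 83.4, IER2 at 73.2, EGR1 at 53.9, JUNB at 50.7, FOS at 12.5, FOSL2 at 9.87, JUN at 9.70 and FOSB at 5.07 CPM per kilobase. FOSL1 and JUND overlapped there, as did FOSL2 and JUN. In the libraries labelled UBA2 KD, FOSL1 was at 138 and JUND at 79.3, and they did not overlap. JUN, at 11.8, overlapped FOS, at 11.5. The tables give some genes different lengths. When lengths were swapped between the tables, 3 of 10 genes kept their place in this control, against 10 of 10 with control siRNA. Levels were not compared between experiments, since the tables count different gene sets.

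Within the FOS family FOSL1 held most of the mRNA per length. Its share of the summed FOS, FOSB, FOSL1 and FOSL2 level was 78.7% and 78.8% with control siRNA and 84.0% and 83.2% with TFAP2C siRNA. The family sum was 66.5 and 72.4, then 95.4 and 91.0 CPM per kilobase. In the UBA2 experiment the FOSL1 share was 77.2% and 76.0%, then 85.8% and 82.4%, and the sum was 115 and 119, then 172 and 157 CPM per kilobase. Groups did not overlap in any of these. Within the JUN family JUND held 50.6% and 52.0%, then 51.2% and 49.2% in the TFAP2C experiment, and 56.2% and 59.7%, then 56.9% and 57.2% in the UBA2 experiment. The JUN family sum was 224 and 248, then 238 and 229.9 CPM per kilobase in the first, and 138 and 149, then 137 and 141 in the second, with overlapping groups. These shares were not tested.

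**Figure D3:**
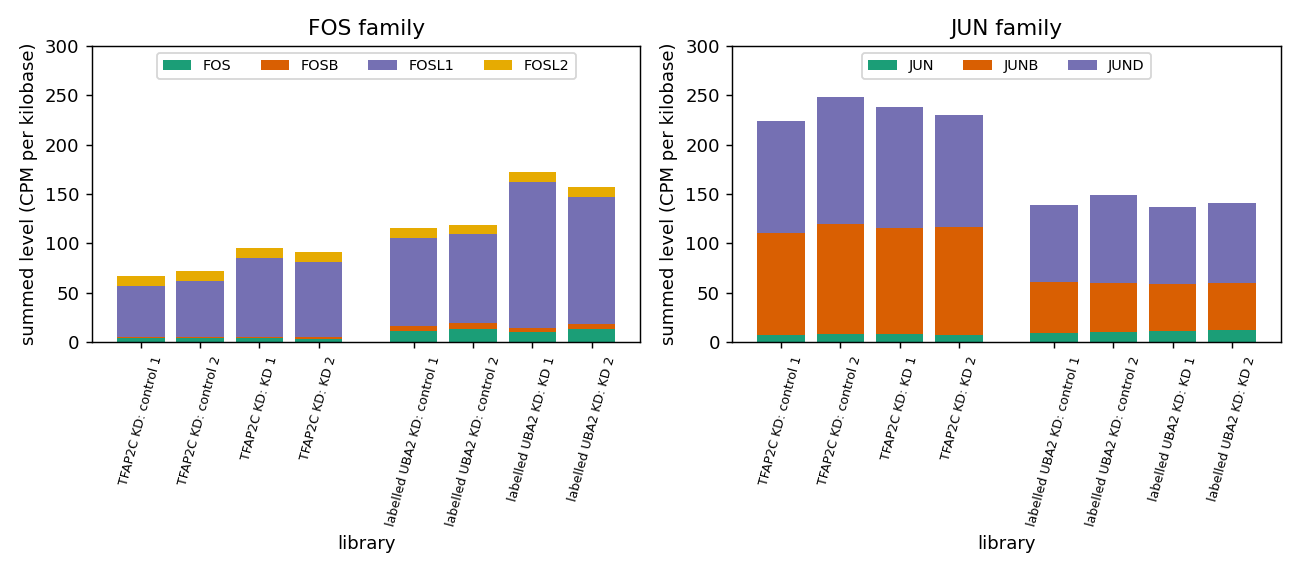
Summed level of the FOS family and of the JUN family in each library (CPM per kilobase, stacked bars starting at 0, 1 segment per gene). The FOSL1 segment is the largest of the FOS family in all 8 libraries, and the FOS family bars are taller with TFAP2C siRNA and in the libraries labelled UBA2 KD than in their controls, whereas the JUN family bars overlap.

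Replicates of these genes were further apart than those of other well expressed genes in 3 of the 4 groups. The median absolute log2 difference between replicates over the 10 genes was 0.119 with control siRNA, 0.0819 with TFAP2C siRNA, 0.0855 in the control of the UBA2 experiment and 0.103 in the libraries labelled UBA2 KD. Over genes with a mean of at least 3 log2 CPM it was 0.0638, 0.110, 0.0641 and 0.0720 in the same order, and over all genes tested 0.0845, 0.133, 0.0806 and 0.0881. TFAP2C siRNA was the group in which the 10 genes were closer together. The widest of the 10 was FOS in the libraries labelled UBA2 KD, at 0.32.

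Whether the genes answered differently to the knockdowns was tested as the difference of the log2 fold changes (TFAP2C KD less the libraries labelled UBA2 KD), in one edgeR fit over 8 libraries and 13179 shared genes. Of the 10 genes, 0 differed at an adjusted p under 0.05, against 2.37% of all genes, and 0 by the Wald test of DESeq2. At an unadjusted p under 0.05, for which no share of all genes was counted, 3 differed. The difference for FOSL1 was −0.13 (95% interval −0.34 to 0.085, adjusted p = 0.627). The 3 genes were EGR1 at 0.33 (95% interval 0.13 to 0.53, adjusted p = 0.0908), JUN at −0.28 (95% interval −0.52 to −0.044, adjusted p = 0.249) and FOSB at 0.40 (95% interval 0.0057 to 0.80, adjusted p = 0.348). EGR1 was called without a filter on low counts (adjusted p = 0.0178), where 607 genes were called in all, against 313 in the main fit. When a library was left out, the EGR1 difference ran from 0.26 to 0.41. The rise of JUN in one experiment is thus not shown to differ from the other.

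Genes that act with or around AP-1 were taken from 6 lists of 108 genes in all, of which 99 were tested in each experiment. In the TFAP2C KD 3 of 99 were higher and 0 were lower, and in the libraries labelled UBA2 KD 32 were higher and 3 were lower. The backgrounds are those given above for each direction. The count of 3 in the TFAP2C KD moved when single libraries were left out, with 1 called without either control siRNA library, 16 without TFAP2C KD replicate 1 and 27 without TFAP2C KD replicate 2.

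Upstream factors that switch on immediate early genes, such as serum response factor, the ternary complex factors and their cofactors, were called in 0 of 13 in the TFAP2C KD (median log2 fold change 0.073). Among the libraries labelled UBA2 KD the list had 2 of 13 that rose and 0 that fell (median 0.073). These were FHL2, a LIM-domain cofactor of AP-1 proteins, from 72.0 and 72.8 to 103 and 99.7 CPM (log2 fold change 0.49, SE 0.059, adjusted p = 2.42e-07), and ETS1 (log2 fold change 0.39, adjusted p = 0.00761).

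The other bZIP proteins that pair with JUN or FOS, or compete with them, were called in 0 of 10 in the TFAP2C KD (median 0.055). Of these 10 genes 3 rose and 0 fell among the libraries labelled UBA2 KD, with a median of −0.053. JDP2, which represses AP-1 as a dimer with JUN, went from 12.9 and 12.1 to 24.5 and 24.6 CPM (log2 fold change 0.98, SE 0.096, adjusted p = 3.73e-09). ATF3, a stress-induced bZIP factor, went from 13.0 and 14.7 to 19.9 and 19.0 CPM (log2 fold change 0.49, adjusted p = 0.00104), and MAFG, a small MAF protein, rose by 0.28 (adjusted p = 0.000895).

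Of the other immediate early genes, 1 of 29 was called in the TFAP2C KD (median 0.087). This was BTG2, an antiproliferative gene, at 80.4 and 83.1, then at 105 and 104 CPM (log2 fold change 0.36, SE 0.070, adjusted p = 0.0368), a call lost without either control siRNA library, with library size only and with the replicate block. For the libraries labelled UBA2 KD the list had 8 of 29 higher and 1 lower (median 0.11). KLF4, a zinc finger factor of differentiating colon epithelium, went from 46.6 and 45.7 to 75.9 and 72.6 CPM (log2 fold change 0.69, adjusted p = 1.46e-09). GADD45B, a stress gene, and ZFP36L1, which promotes mRNA decay, rose by 0.53 (adjusted p = 4.39e-05) and 0.43 (adjusted p = 2.76e-08). The gene that fell was the nuclear receptor NR4A1, from 26.0 and 33.5 to 21.7 and 21.1 CPM (log2 fold change −0.48, adjusted p = 0.000715).

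ERK activity was not measured here. Of the ERK pathway output and feedback genes, 1 of 16 was called in the TFAP2C KD (median 0.011). This was DUSP5, a nuclear ERK phosphatase, at 178 and 193, then at 241 and 230.9 CPM (log2 fold change 0.35, SE 0.070, adjusted p = 0.0449), a call lost in the same settings as that of BTG2. For the libraries labelled UBA2 KD the list had 7 of 16 higher and 2 lower (median 0.17). The phosphatase DUSP4 went from 239.6 and 250.2 to 342 and 343 CPM (log2 fold change 0.48, adjusted p = 2.90e-09). ETV5, an ETS factor, and SPRY4, a feedback inhibitor, rose by 0.45 (adjusted p = 1.58e-07) and 0.41 (adjusted p = 2.05e-07). Members of the same families fell, with SPRY1 at −0.73 (adjusted p = 0.00761) and ETV1 at −0.41 (adjusted p = 0.00212). The MAP kinases that act on AP-1 were called in 0 of 15 in either experiment by edgeR. At an unadjusted p under 0.05, for which no share of all genes was counted, there were 1 and 3.

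**Figure D4:**
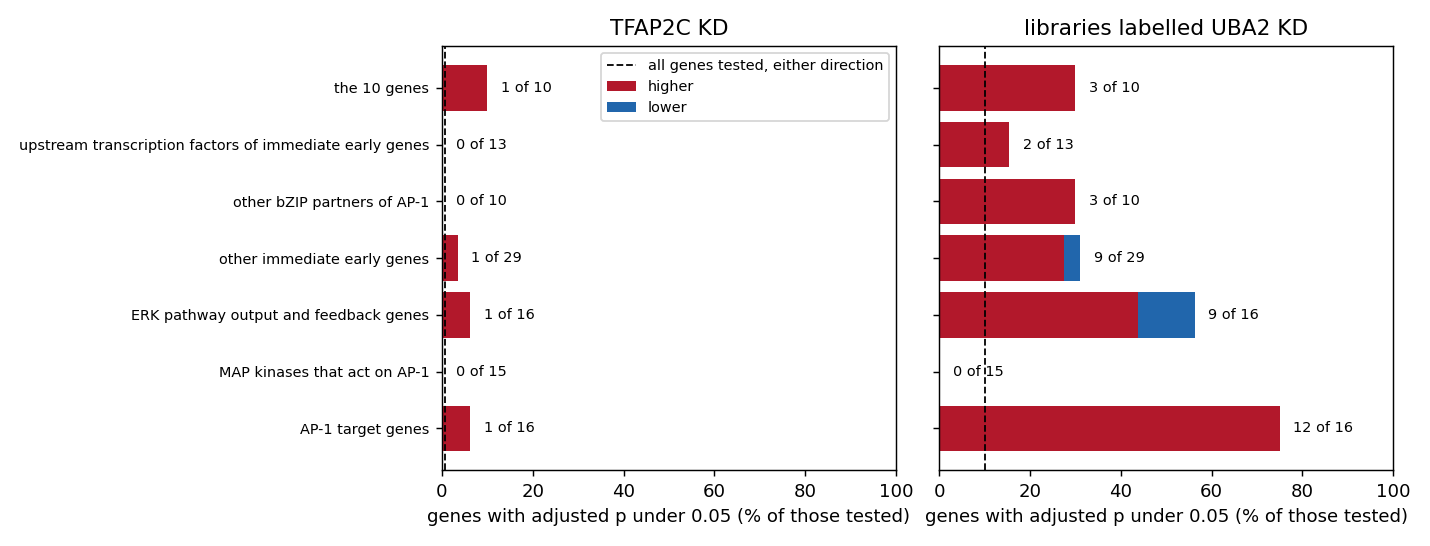
Share of the tested genes in each list that were higher or lower at an adjusted p under 0.05 (% of those tested, bars starting at 0), in the TFAP2C KD and the libraries labelled UBA2 KD, with the share over all genes in either direction as a dashed line. The AP-1 target genes stand at 1 of 16 and at 12 of 16, and the MAP kinases at 0 of 15 in both.

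The genes known as AP-1 targets include proteases, adhesion genes and secreted growth factors. Of those tested, 12 of 16 were called in the libraries labelled UBA2 KD and 1 of 16 in the TFAP2C KD. Over all genes tested, 1336 of 13381 and 111 of 14991 were called in the same order. Of 22 genes 16 were tested, and 6 matrix metalloproteinases (MMP1, MMP3, MMP7, MMP9, MMP10 and MMP13) fell below the filter in both experiments. In the libraries labelled UBA2 KD 12 of 16 rose and 0 fell, against 5.52% and 4.47% of all genes. The median log2 fold change was 0.47. PLAU, the urokinase protease, went from 55.9 and 52.1 to 98.3 and 96.5 CPM (log2 fold change 0.85, SE 0.062, adjusted p = 4.85e-12). KRT80, a keratin, went from 16.9 and 17.7 to 34.2 and 29.8 CPM (log2 fold change 0.88, SE 0.090, adjusted p = 7.69e-09). Between 10 and 12 targets were called in every alternative tried.

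In the TFAP2C KD the same list gave 1 of 16 higher and 0 lower, against 0.26% and 0.48% of all genes. The median was 0.11, and 11 of the 16 lay above 0. An unadjusted p under 0.05, for which no share of all genes was counted, was reached by 9. Of these, ITGA2 (−0.31), CXCL8 (−0.48) and CD44 (−0.20) were lower and the rest were higher. The count of called targets was 7 with all 8 libraries in the fit, 6 without a filter on low counts and 4 with the Wald test of DESeq2. For 7 of the 16 targets the difference was called, against 2.37% of all genes, each with the higher fold change in the libraries labelled UBA2 KD, and it was −0.73 for VEGFA, an angiogenic factor, −0.63 for PLAU and −0.78 for KRT80. FOSL1 rose in both experiments, whereas PLAU and KRT80 had log2 fold changes of 0.23 and 0.11 in the TFAP2C KD, neither called. The lists were chosen with earlier results of these data known, and their counts are a description.

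**Figure D5:**
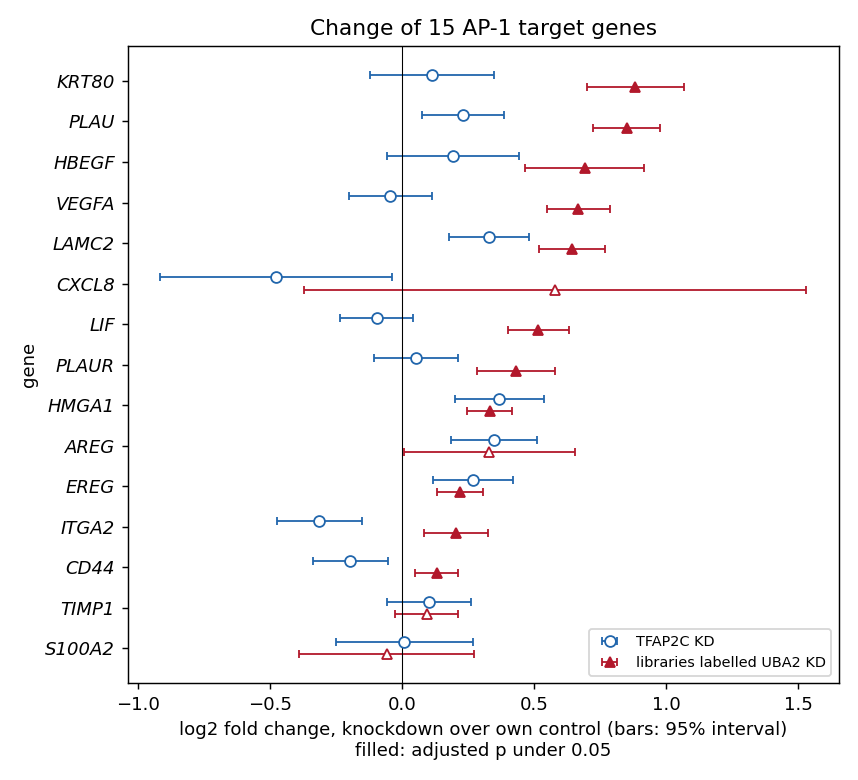
Log2 fold change of 15 of the 16 tested AP-1 target genes in the TFAP2C KD and the libraries labelled UBA2 KD, with 95% intervals and filled points at an adjusted p under 0.05. Of the 15 triangles 11 are filled and all 11 lie above 0, whereas 0 of the 15 circles of the TFAP2C KD are filled.

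Genes whose levels followed each of the 10 most closely were ranked by Pearson's r of log2 CPM over the 8 libraries, centred within each experiment, among 12157 genes. The libraries share their experiment's controls and scaling, and the values are a description only. The closest to FOSL1 were SPCS1 (r = 0.998) and TRIM8 (r = 0.996), and 294 genes passed 0.9. For JUN they were H6PD (r = 0.998) and ENTPD6 (r = 0.984). EGR1 was closest to GPI (r = 0.990) and CHST6 (r = 0.977). FOS and FOSB were closest to FZD9 (r = 0.974) and to RPL15 (r = 0.969), FOSL2 to TRAF3IP2-AS1 (r = 0.965), JUNB to FBXL12 (r = 0.972) and JUND to CDKAL1 (r = 0.975). IER2 was closest to SIN3A (r = 0.984) and IER3 to EP400 (r = 0.983). Among the 10 themselves IER2 and IER3 were most alike (r = 0.951), and the gene closest to FOSL1 was IER2 (r = 0.835).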

How the data were processed

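mRNA libraries of HCT116 cells were sequenced by the authors. They describe alignment with TopHat2 to hg19 and counting on RefSeq genes with HTSeq, version 0.9.1 per the submitters' processing notes. The deposited values are raw counts per gene, in 1 table for each experiment. The table of the TFAP2C experiment carries GRCh38 positions, and that of the UBA2 experiment hg19 positions. The described use of hg19 therefore does not match the table of the TFAP2C experiment.

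Genes were filtered with filterByExpr (minimum count 10), scaled by TMM and tested with the quasi-likelihood test of edgeR 4.0.16 (limma 3.58.1, R 4.3.3), 2 libraries against 2, with Benjamini-Hochberg adjustment over all 14991 and 13381 genes tested. The biological coefficient of variation was 6.28% and 3.56%. The difference between the knockdowns came from 1 fit of all 8 libraries. Alternatives used DESeq2 1.42.0, other scaling or filters, a replicate block and leaving out each library. Genes named were all 10 members, up to 3 rises and 3 falls per list at an adjusted p under 0.05 and a mean level of 1 or more log2 CPM, and the genes with the most similar levels. CXCL8, VEGFA, HMGA1, EREG, the MMP genes, VIL1, COL1A1, DES, genes that overlap a member and genes with a called difference were named after their values were seen. The test script was checked on simulated counts. The values of 1 AP-1 target gene, which is in the counts, are not reported here. Members and lists were chosen with earlier results of these data known.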

Additional observations from a re-analysis of the deposited data

Results flagged for a closer look

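Of the 10 AP-1 and immediate early genes, 0 changed differently in the TFAP2C KD and the libraries labelled UBA2 KD by the edgeR test of the difference. The Wald test of DESeq2 also gave 0. At an unadjusted p under 0.05 in edgeR, for which no share of all genes was counted, there were 3. Of the 95 genes of the 6 lists in the edgeR fit, 16 changed differently at an adjusted p under 0.05, against 2.37% of all genes. Values are the log2 fold change in the TFAP2C KD less that in the libraries labelled UBA2 KD.

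Among the AP-1 targets the difference was −0.63 for PLAU (adjusted p = 0.00124), −0.39 for PLAUR (adjusted p = 0.0416), −0.73 for VEGFA (adjusted p = 0.000460), −0.34 for CD44 (adjusted p = 0.0129), −0.53 for ITGA2 (adjusted p = 0.00898), −0.63 for LIF (adjusted p = 0.000874) and −0.78 for KRT80 (adjusted p = 0.00619). The log2 fold change of these targets in the TFAP2C KD was −0.045 for VEGFA, −0.20 for CD44, −0.31 for ITGA2 and −0.097 for LIF. For PLAU, PLAUR and KRT80 it was above 0, and none of the targets named here was called there. Among the partners and upstream factors the difference was −1.27 for JDP2 and −0.39 for FHL2. Among the other immediate early genes it was −0.53 for KLF4, −0.45 for BTG1 and 0.52 for BTG2. Among the ERK output genes it was −0.51 for DUSP4, −0.38 for SPRY4 and −0.49 for ETV5. The MAP kinase kinase MAP2K4 differed by 0.39. BTG2 and MAP2K4 were the 2 of the 16 with the higher fold change in the TFAP2C KD. The cause was not tested.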

How the results depend on the processing

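FOSL1 kept its direction in every alternative of both experiments. With 1 library in an arm, that library is assumed to vary like the others. In the TFAP2C KD, 1 of the 10 genes was called, and leaving out 1 library gave 0 to 3. EGR1 was among these without either TFAP2C KD library, and FOSB without TFAP2C KD replicate 2 (log2 fold change 0.40). The 3 list genes called became 1 with library size only, 10 without a filter, 7 with DESeq2 and 10 with all 8 libraries, and 1 to 27 when a library was left out. AP-1 targets called there ran from 1 to 9, an alternative chosen after seeing the data. In the UBA2 experiment 2 to 3 of the 10 genes were called throughout, and leaving out a library gave 2. The count of the difference was 0, and became 1 without a filter and 0 to 1 when a library was left out, where the gene was EGR1. Of the length order, 3 of 10 places were kept in the control with lengths swapped between the tables. The causes were not tested.

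Over all genes, 111 were called in the TFAP2C KD, 398 without a filter, 271 with all 8 libraries and 49 to 2825 when a library was left out, the highest without TFAP2C KD replicate 2. In the UBA2 experiment 1336 were called, 673 with DESeq2, 696 with all 8 libraries and 833 to 1271 when a library was left out. The difference was called for 313 genes, 607 without a filter and 113 to 1554 when a library was left out.

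With library size only, JUN and JUNB in the TFAP2C KD turned to −0.011 and −0.0097. When a library was left out, the uncalled log2 fold changes in the TFAP2C KD ran from −0.023 to 0.062 for JUN, −0.036 to 0.066 for JUNB, −0.14 to 0.040 for JUND and −0.038 to 0.16 for IER3. In the UBA2 experiment they ran from −0.28 to 0.034 for FOS, −0.24 to 0.040 for FOSB, −0.052 to 0.020 for FOSL2 and −0.17 to 0.029 for JUND. The difference ran from −0.11 to 0.20 for FOS and −0.089 to 0.13 for JUND.

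Replicate numbers are shared by the groups, but the labels tie them to nothing, and deviations of same-numbered libraries correlated at −0.14 in the TFAP2C experiment and 0.074 in the UBA2 experiment over all genes, and at −0.090 and 0.76 over the 10 genes alone. FOS, FOSB, JUN and JUND were higher in replicate 2 of both groups of the UBA2 experiment. The block changed no call among the 10 genes. With the replicate block, 172 genes and 1 list gene were called in the TFAP2C KD, 1308 genes in the UBA2 experiment and 173 in the difference. With the crossed replicate block, chosen after seeing the data, 467 genes and 14 list genes were called in the TFAP2C KD. Of the 10 genes 2 were called with it, FOSL1 and EGR1.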
